A study of Mus musculus with 6 samples.

Results

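Genes of the antioxidant, NRF2 and detoxification systems were examined in mouse LSK cells after haloperidol. The genes were 39 rows chosen by name from a deposited table of 38926 genes, in 10 roles: the regulator pair NRF2 and KEAP1, quinone and haem enzymes, glutathione synthesis and recycling, glutathione peroxidases, conjugating enzymes, the thioredoxin system, peroxiredoxins, superoxide dismutases and catalase, NADPH supply, and ferritin. All 39 were found, and 38 were tested. LSK cells lack lineage markers and carry Sca-1 and Kit, and hold the stem cells and multipotent progenitors of blood. They came from femur and tibia of wild-type C57BL/6 mice aged 8 to 12 weeks, given haloperidol, an antipsychotic that blocks dopamine receptors, or its solvent DMSO on 3 days in a row. Drug or solvent was kept with the cells through the sort. Each treatment had 3 RNA sequencing libraries, and nothing in the labels says whether each was a separate mouse or a pool, so the p-values measure only how far these samples differ from each other, which may be technical. No dose, sorting date or sequencing date was used here, and a batch that ran with the treatment cannot be told apart from it.

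NRF2, the product of Nfe2l2, is a transcription factor that is held low by KEAP1, the adaptor that presents it to a ubiquitin ligase. When reactive thiols of KEAP1 are modified, NRF2 escapes, pairs with a small MAF protein and binds antioxidant response elements near genes for glutathione and thioredoxin enzymes, NADPH supply, ferritin and conjugating enzymes. Haematopoietic stem cells are known for low levels of reactive oxygen species, and these enzymes are part of how such levels are kept.

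The response element can be read as letters in some of the promoters, and these stretches are shown because they hold letters that match the element's core. RefSeq promoter windows, from 250 bases before to 50 after each annotated start on GRCm38.p6, were matched for 34 of the 39 genes, and there was no entry for Hmox1, Gclc, Gsr, Gsta4 and Prdx6. The core TGACNNNGC was searched on both strands. It was present for 10 of the 34 genes (29.41%), and for 17.14% of all tested genes with a window. The stretches below are from the strand of the gene, 5′ to 3′, with the core in capitals, which is its reverse complement where it lies on the opposite strand.
Prdx1 (chr4:116685441-116685499, plus strand): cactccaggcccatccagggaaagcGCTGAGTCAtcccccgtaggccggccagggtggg
Txnrd1 (chr10:82859089-82859147, plus strand): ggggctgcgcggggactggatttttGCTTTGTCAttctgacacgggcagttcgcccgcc
Gclm (chr3:122245398-122245456, plus strand): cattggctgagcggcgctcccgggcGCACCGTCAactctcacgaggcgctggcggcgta
G6pdx (chrX:74428904-74428962, minus strand): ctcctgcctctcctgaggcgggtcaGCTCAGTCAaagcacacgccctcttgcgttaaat
Nfe2l2 (chr2:75704870-75704913, minus strand): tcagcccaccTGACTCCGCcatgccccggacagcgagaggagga
The other 5 genes with the core were Gstm5, Me1, Pgd, Sod1 and Srxn1. Of the 10, Nfe2l2 was lower with haloperidol, 8 did not pass the test described below, and Me1 was too low to be tested. Of the 24 genes whose windows lacked the core, 6 were higher and 3 lower, beside 24.5% of all genes tested that passed. Elements outside the windows were not seen, Gsr and Prdx6 had no window, and whether the core went with a change was not tested. A match is a description of the letters and not of binding.

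The 6 libraries held 8492756 to 8936497 reads on genes. Their largest principal component, with 51.6% of the variance, separated the treatments. On it the DMSO libraries lay at -17.83 to -16.73 and the haloperidol libraries at 14.08 to 20.79, and other components were not looked at. Of the genes that define the gate, Kit had means of 87.8 and 81.0 FPKM (fragments scaled to gene length and library size) in DMSO and haloperidol, and Ly6a, which encodes Sca-1, had 136 and 138 FPKM. Of 4 other genes of stem and progenitor cells, Cd34 and Procr were lower, Flt3 was higher and Slamf1 did not pass. Among markers of other cells, the summed level of 8 mast cell and basophil genes was 46.3 to 53.0 FPKM in DMSO and 78.5 to 101 FPKM in haloperidol, with 2 of 3 tested higher. That of 14 genes of monocytes, macrophages and dendritic cells was 185 to 226 FPKM against 147 to 153 FPKM, with 1 of 8 tested higher and 3 lower, and 6 of the 14 averaged under 1 FPKM. Cd74 was on average the largest part of this sum (147.9 and 73.0 FPKM) and was lower, as were H2-Aa and C1qc. The higher gene was Cd68, with means of 16.2 and 44.9 FPKM. The summed level of 9 B cell and plasma cell genes was 279 to 366 FPKM against 172 to 276 FPKM, with 3 of 5 tested lower (Ighm, Cd79a and Cd79b). Ighm was on average the largest part of it (262.3 and 101.7 FPKM). The means of Igkc (23.9 and 84.45 FPKM, adjusted p = 0.1065) and Igj (2.915 and 3.925 FPKM, adjusted p = 0.563) were higher without a call. The sum of 7 megakaryocyte genes was 84.1 to 91.4 FPKM against 106.2 to 121 FPKM, with 1 of 6 higher. That gene was Itga2b, with means of 18.7 and 44.8 FPKM. The means of Gp9 (16.09 and 19.74 FPKM, adjusted p = 0.0886) and Gp1bb (adjusted p = 0.1735) were also higher in haloperidol, without a call. Those of Pf4, Ppbp, Gp5 and Vwf were lower in haloperidol without a call (Ppbp 2.64 and 1.22 FPKM, adjusted p = 0.0505, and Vwf under the minimum level). For 10 erythroid genes, with sums of 3637 to 4799 and 4199 to 5540 FPKM, 0 of 10 were past the threshold with limma (1 at an unadjusted p under 0.05). For 11 neutrophil genes, at 581 to 732 and 697 to 733 FPKM, 0 of 10 tested were (0 at an unadjusted p under 0.05). This sum is mostly Mpo (420 and 439 FPKM on average). For 10 T and NK cell genes, with sums of 319 to 341 and 278 to 326 FPKM, mostly Nkg7 (318 and 296 FPKM on average), 1 of 4 tested was lower (Tcf7, from 2.56 to 0.963 FPKM, adjusted p = 0.00743) and Cd8a was at 0 in every library. For 10 endothelial and stromal genes, with sums of 43.9 to 48.2 and 49.2 to 50.6 FPKM, 1 of 5 tested was higher (Pdgfrb, from 13.0 to 16.9 FPKM, adjusted p = 0.0255) and Bglap was at 0 in every library. The part of these cells in the results below was not tested, and in bulk samples fewer cells of a type and less RNA per cell cannot be told apart.

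Genes averaging 1 FPKM or more were compared with limma on log2(FPKM + 1), and a gene is said to be higher or lower when its p, adjusted over all 11436 genes tested, was below 0.05. A fold change sets haloperidol against DMSO on that log2(FPKM + 1) scale, which understates the change of low genes. Of the 38 genes tested, 7 were higher (Sult1a1, Gsr, Sod2, Gsto1, Gstp1, Prdx4 and Taldo1), 5 were lower (Nqo1, Nfe2l2, Gstm1, Prdx6 and Prdx2) and 26 did not pass. These 12 are 31.6% of the genes tested, beside 24.5% of all genes tested (11.5% higher and 13.0% lower). The libraries of the treatments did not overlap for 20 of the 38 genes (52.6%), beside 43.1% of all genes. Both shares lie near the background. Most differences were small: the median absolute log2 fold change was 0.11 for the 38 genes and 0.16 for all genes, the median log2 fold change was 0.01 and 0.00, and only Sult1a1 of the 38 moved by 2-fold or more. With other settings, 6 of the 12 calls (Sult1a1, Gsr, Sod2, Gsto1, Gstp1 and Gstm1) held under all 17 alternatives that were run, and the other 6 were lost under some.

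**Figure D1:**
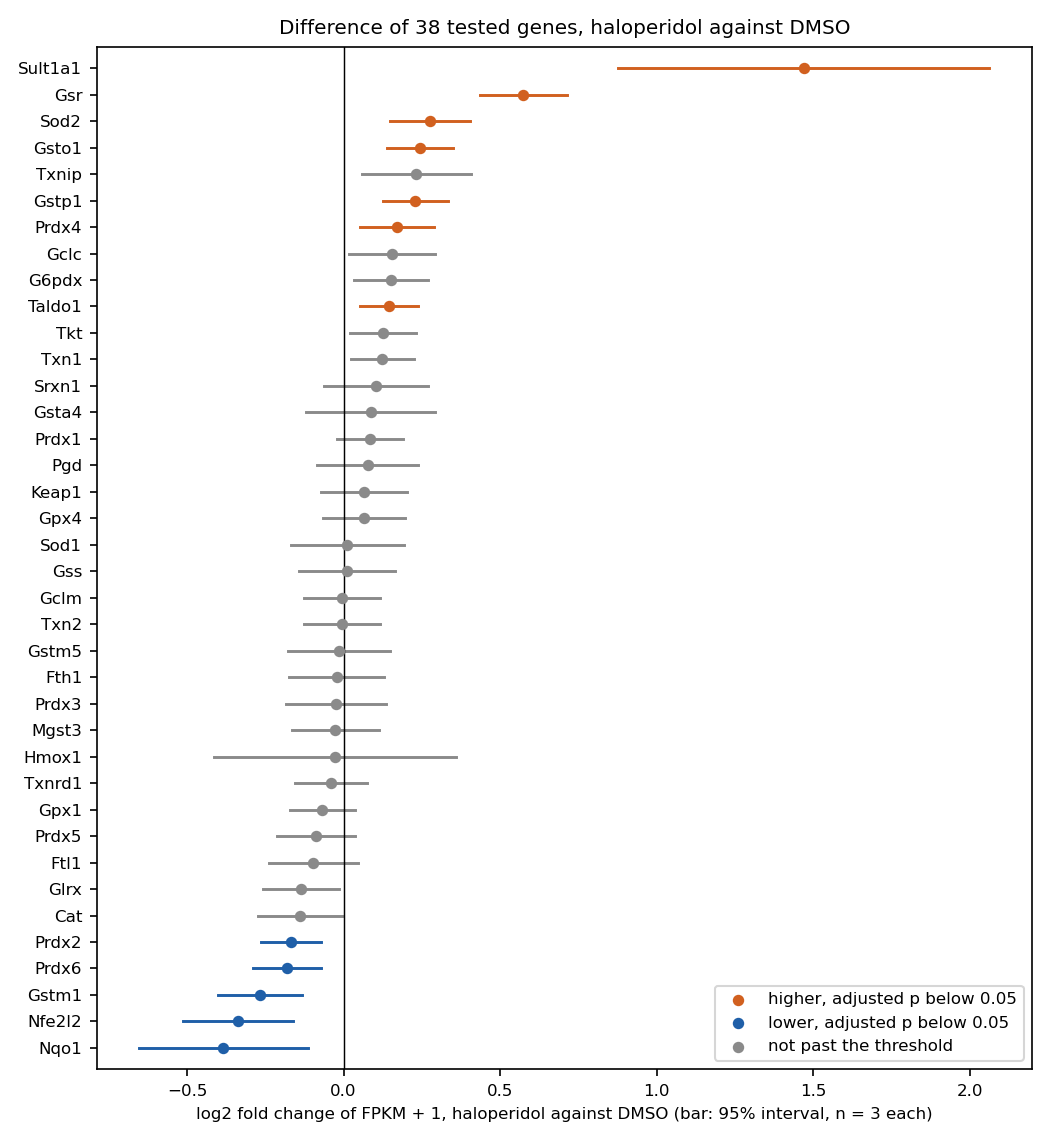
Log2 fold change of FPKM + 1 (x axis, haloperidol against DMSO) for the 38 tested genes, ordered by size, with points for estimates and bars for 95% intervals from limma (n = 3 libraries in each group). Sult1a1 at 1.47 and Gsr at 0.57 stand to the right of all others, and the other 36 lie between -0.38 and 0.28.

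**Figure D2:**
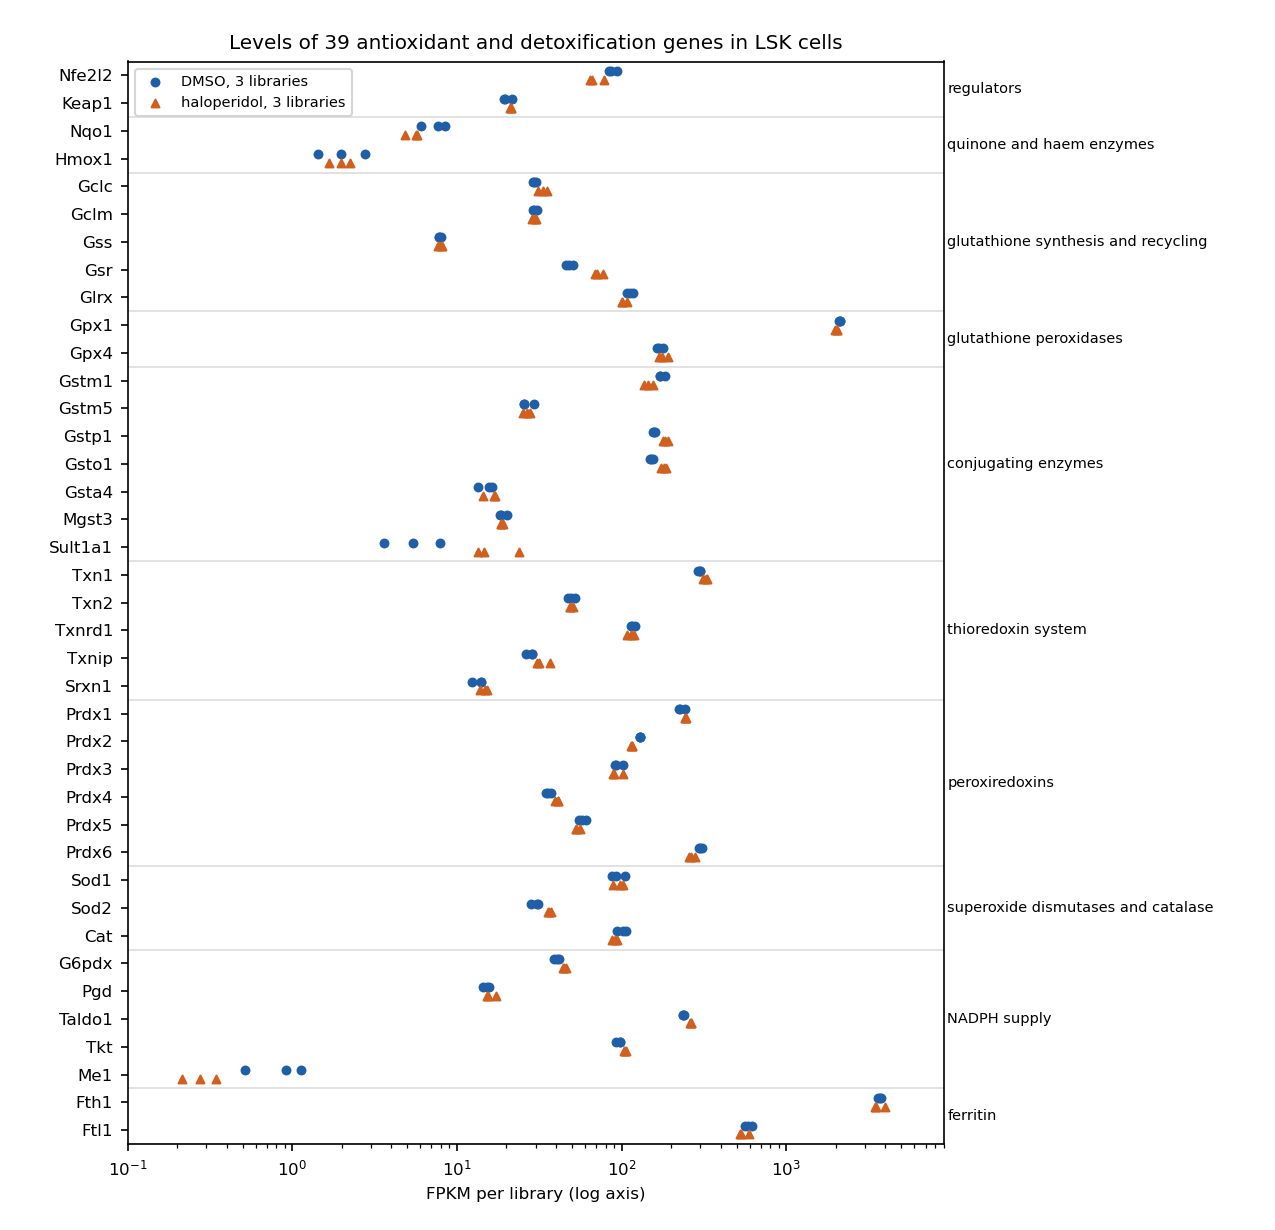
FPKM of the 39 genes in each of the 6 libraries on a log axis, by role, with circles for DMSO and triangles for haloperidol. Levels run from 0.214 FPKM for Me1 to 3998 FPKM for Fth1, and for most genes the circles and triangles lie close together.

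Levels of these genes differed widely. Fth1, the heavy chain of the iron store ferritin, was the second most abundant of the 11436 genes by mean FPKM (3675 FPKM over the 6 libraries), Gpx1 was at rank 8 (2057 FPKM) and Ftl1, the ferritin light chain, at rank 76 (569 FPKM). FPKM is per gene length, so these levels can be set side by side. At the other end were Nqo1 at rank 7046 and Hmox1 at rank 10032, with 6.39 and 2.01 FPKM. Nqo1 and Hmox1, both classic inducible targets of NRF2, had the lowest levels of the 38 genes tested.

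The transcript of NRF2 itself fell, while that of its inhibitor did not pass the test. Nfe2l2 (chromosome 2, 75675513 to 75704641, mm10) was at 83.9, 86.7 and 93.5 FPKM in DMSO replicates 1, 2 and 3 and at 66.5, 64.6 and 77.7 FPKM in haloperidol replicates 1, 2 and 3. Every haloperidol library lay below every DMSO library. On the log2 scale it fell by 0.34 (SE 0.08, adjusted p = 0.0146), from means of 88.0 ± 4.92 to 69.6 ± 7.08 FPKM (SD, n = 3 each). The call was lost narrowly without DMSO replicate 3 (adjusted p = 0.0515), without haloperidol replicate 1 (adjusted p = 0.0518) and with the minimum level dropped (adjusted p = 0.0501). Keap1 was at 19.7, 21.5 and 19.4 FPKM in DMSO and at 20.9, 21.2 and 21.4 FPKM in haloperidol. Its groups overlapped, and the 95% interval of its log2 fold change ran from -0.07 to 0.20 (adjusted p = 0.46).

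Nqo1, a quinone reductase widely used as a readout of NRF2 activity, was lower and close to the threshold. It was at 6.07, 8.45 and 7.64 FPKM in DMSO and at 5.61, 5.72 and 4.84 FPKM in haloperidol. The groups did not overlap, but DMSO replicate 1 was near the haloperidol libraries. The log2 fold change was -0.38 (SE 0.12, adjusted p = 0.0456). The call was lost under 9 of 17 alternatives: without DMSO replicate 2 or 3 or without haloperidol replicate 1, 2 or 3 (adjusted p = 0.147, 0.123, 0.0844, 0.069 and 0.123), with the minimum level dropped (0.121), quantile normalization (0.0602), the replicate number as a block (0.0555) and voom on recovered reads (0.0624). Hmox1, the inducible haem oxygenase, was at 2.75, 1.97 and 1.44 FPKM in DMSO and at 1.67, 2.24 and 1.97 FPKM in haloperidol. The groups overlapped, and with only 28 to 53 reads in a library the interval was wide, from -0.41 to 0.36 (adjusted p = 0.93).

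Among genes of glutathione synthesis and recycling, Gsr was the exception. Gsr encodes glutathione reductase, which returns oxidised glutathione to its reduced form at the expense of NADPH (chromosome 8, 33652523 to 33698163). It was at 47.9, 46.0 and 50.6 FPKM in DMSO replicates 1, 2 and 3 and at 71.2, 68.5 and 76.8 FPKM in haloperidol replicates 1, 2 and 3. The lowest haloperidol library was well above the highest DMSO library. The mean rose by 49.9%, or 0.57 on the log2 scale (SE 0.06, adjusted p = 5.08e-04), and leaving out each library in turn gave 0.53 to 0.61. A difference of at least 0.4 in size that passed the test was found for Gsr and Sult1a1 here, and for 11.3% of all genes tested.

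The other 4 genes of that role did not pass. Gclc and Gclm, the catalytic and modifier subunits of glutamate-cysteine ligase, which makes the first step of glutathione synthesis, had means of 29.6 ± 0.657 and 29.6 ± 0.834 FPKM in DMSO and of 33.1 ± 2.09 and 29.5 ± 1.01 FPKM in haloperidol. The Gclc groups did not overlap (adjusted p = 0.0974), whereas the interval of Gclm was -0.13 to 0.12 on the log2 scale. Gss, glutathione synthetase, was at 7.85 ± 0.179 and 7.92 ± 0.241 FPKM. Glrx, the glutaredoxin that reduces glutathionylated proteins, was at 113 ± 4.67 and 102 ± 4.23 FPKM, with groups that did not overlap (adjusted p = 0.0947). Gsr took 21.1% ± 0.629 of the summed FPKM of these 5 genes in DMSO and 29.4% ± 1.58 in haloperidol, and Glrx 49.4% ± 1.18 and 41.8% ± 1.11.

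The glutathione peroxidases use reduced glutathione to remove peroxides, and neither passed the test. Gpx1, the cytosolic enzyme, had 2105 ± 22.1 FPKM with DMSO and 2008 ± 40.3 FPKM with haloperidol (log2 fold change -0.07, interval -0.17 to 0.04, adjusted p = 0.309). Gpx4, which reduces lipid peroxides, was at 170.3 ± 7.11 and 178 ± 10.6 FPKM (interval -0.07 to 0.20, adjusted p = 0.438). Neither had an unadjusted p under 0.05.

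Of 7 conjugating enzymes, 3 were higher and 1 was lower (57.1% called, beside 24.5% of all genes tested). Sult1a1, a phenol sulfotransferase, had the largest difference of all the 38 genes (chromosome 7, 126672865 to 126676432). It was at 5.43, 3.59 and 7.87 FPKM in DMSO replicates 1, 2 and 3 and at 14.6, 13.4 and 23.9 FPKM in haloperidol replicates 1, 2 and 3. Libraries varied more for this gene than for the others, with haloperidol replicate 3 well above the other haloperidol libraries, yet the groups did not overlap. The log2 fold change was 1.47 (SE 0.26, adjusted p = 0.00501), and it was 1.22 to 1.71 when each library was left out in turn. These values rest on 47 to 107 reads in DMSO and 179 to 321 in haloperidol. Exons of Sult1a1 overlap those of Sgf29 on the opposite strand, and the library kit keeps no strand. Sgf29, listed as Ccdc101, was at 35.3 and 36.2 FPKM on average (adjusted p = 0.76).

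Glutathione S-transferases moved in both directions. Gstp1, the pi-class enzyme, was at 154, 158 and 159 FPKM in DMSO and at 183, 179 and 191 FPKM in haloperidol, which is 0.23 on the log2 scale (SE 0.05, adjusted p = 0.00825). Gsto1, an omega-class enzyme with thiol transferase activity, was at 155, 151 and 149 FPKM in DMSO and at 181, 173 and 185 FPKM in haloperidol (0.24, SE 0.05, adjusted p = 0.00684). Gstm1, a mu-class enzyme, went the other way, from 171, 171 and 182 FPKM to 155, 136 and 144 FPKM (-0.27, SE 0.06, adjusted p = 0.0133). For each of the 3 genes the groups were separate. In DMSO Gstm1 held 31.8% ± 0.567 of the summed FPKM of the 7 conjugating enzymes, ahead of Gstp1 at 28.5% ± 0.489, and in haloperidol Gstp1 led with 31.4% ± 0.659 against 24.7% ± 1.17 for Gstm1. Gstm5, Gsta4 and the microsomal Mgst3 had haloperidol means of 26.5, 16.1 and 18.7 FPKM against 26.8, 15.1 and 19.1 FPKM in DMSO, with adjusted p of 0.909, 0.525 and 0.788. Mu-class genes lie side by side and resemble each other, so how reads were split among them or left out is uncertain. The near copy of Gstp1, Gstp2, was at most at 0.367 FPKM in any library, which does not show whether shared reads were left out.

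In the thioredoxin system 0 of 5 genes passed the test with limma, and 2 had an unadjusted p under 0.05. Txn1, the cytosolic thioredoxin that passes electrons to peroxiredoxins, was at 295 ± 5.59 and 322 ± 8.37 FPKM with separate groups (log2 fold change 0.12, interval 0.02 to 0.22, adjusted p = 0.0726). Txnip, which binds and inhibits thioredoxin, was at 28.6, 26.3 and 28.6 FPKM in DMSO and at 36.7, 31.5 and 30.7 FPKM in haloperidol. Its groups were separate too, 0.23 apart on the log2 scale (SE 0.08, adjusted p = 0.0571), and it passed under 8 of 17 alternatives, among them voom on recovered reads (adjusted p = 0.0279), quantile normalization (adjusted p = 0.0489) and leaving out haloperidol replicate 3 (adjusted p = 0.0475). An antisense gene, Gm15441, overlaps it, at 0.294 and 0.745 FPKM on average. Txnrd1, the selenoprotein that reduces thioredoxin, was at 117 ± 2.93 and 114 ± 5.22 FPKM, and Txn2, the mitochondrial thioredoxin, at 49.4 ± 2.29 and 49.2 ± 1.21 FPKM. Srxn1, which repairs overoxidised peroxiredoxins, was at 13.5 ± 0.974 and 14.5 ± 0.715 FPKM. The intervals of Txnrd1, Txn2 and Srxn1 were -0.15 to 0.08, -0.13 to 0.12 and -0.06 to 0.27. The summed FPKM of the 5 genes was 503 ± 5.12 in DMSO and 532 ± 3.94 in haloperidol, which is mostly Txn1.

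Peroxiredoxins are the thiol peroxidases of the cytosol, mitochondria and endoplasmic reticulum, and here 1 of 6 was higher and 2 were lower. That is 3 of 6 called, beside 24.5% of all genes tested. Prdx6, a family member that works with glutathione, was the most abundant, at 299.9, 297 and 309 FPKM in DMSO and at 262, 258 and 279 FPKM in haloperidol (log2 fold change -0.18, SE 0.05, adjusted p = 0.026). Prdx2, abundant in erythroid cells, was tightly grouped at 129, 129 and 129.9 FPKM against 113, 115 and 116 FPKM (-0.17, SE 0.04, adjusted p = 0.0209). Prdx4, the enzyme of the endoplasmic reticulum, was at 35.8, 37.4 and 34.6 FPKM against 39.5, 41.2 and 41.0 FPKM (0.17, SE 0.05, adjusted p = 0.0456). Groups were separate for each of these 3 genes, though the means of Prdx6 and Prdx2 fell by only 11.8% and 11.1% and that of Prdx4 rose by 12.8%.

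Each of these 3 calls was lost when some libraries were left out. The Prdx4 call was lost without any 1 of the 6 libraries (adjusted p = 0.0645 to 0.124), with rescaling to a common sum (0.0843), sample quality weights (0.0572), the replicate number as a block (0.0643), the minimum level dropped (0.0552) and voom (0.0641). The Prdx6 call was lost without DMSO replicate 1, 2 or 3 (adjusted p = 0.0603, 0.0664 and 0.0754), without haloperidol replicate 1 or 2 (0.0837 and 0.0813) and with the minimum level dropped (0.0601). That of Prdx2 was lost without DMSO replicate 2 or 3 (adjusted p = 0.0714 and 0.0542) and without haloperidol replicate 1 or 2 (0.0707 and 0.0561). Prdx2 was still called without DMSO replicate 1 or haloperidol replicate 3 (adjusted p = 0.0494 and 0.0351), and Prdx6 without haloperidol replicate 3 (adjusted p = 0.0185). Annotated exons of Prdx2 overlap those of Junb and Rnaseh2a on the opposite strand. Junb, an abundant transcription factor gene, fell from 2030 to 1527 FPKM (adjusted p = 0.00122) and Rnaseh2a rose from 28.8 to 35.1 FPKM (adjusted p = 0.00618), and the part of their reads in the Prdx2 value was not tested.

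The remaining peroxiredoxins did not pass. Prdx1, the main cytosolic enzyme, was at 230.3 ± 9.65 and 244 ± 2.56 FPKM with separate groups (adjusted p = 0.221), Prdx3, the mitochondrial enzyme, at 95.1 ± 6.26 and 93.6 ± 7.37 FPKM, and Prdx5 at 57.6 ± 2.86 and 54.1 ± 1.74 FPKM. By share of the summed FPKM of the 6 genes, Prdx6 went from 35.5% ± 0.348 in DMSO to 32.7% ± 0.426 in haloperidol and Prdx1 from 27.1% ± 0.409 to 30.0% ± 0.590. The order from highest to lowest, which was Prdx6, Prdx1, Prdx2, Prdx3, Prdx5 and Prdx4, was that of both treatments. The sum itself was 850.2 ± 23.8 and 814 ± 23.7 FPKM.

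Of the superoxide dismutases and catalase, only Sod2 passed the test. Sod2, the manganese enzyme of mitochondria (chromosome 17, 13006846 to 13040063), was at 30.9, 28.1 and 30.6 FPKM in DMSO and at 36.1, 36.0 and 37.0 FPKM in haloperidol. All haloperidol libraries were above all DMSO libraries, a rise of 0.28 on the log2 scale (SE 0.06, adjusted p = 0.00897). Sod1, the copper and zinc enzyme of the cytosol, was at 95.5 ± 9.09 and 96.2 ± 6.97 FPKM (interval -0.17 to 0.19, adjusted p = 0.93). Cat, catalase, was at 100.5 ± 6.32 and 91.1 ± 3.39 FPKM with overlapping groups (adjusted p = 0.118). Whether Sod2 and Sod1 differed in their response was not tested.

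The pentose phosphate pathway is a main cytosolic source of the NADPH that Gsr and Txnrd1 use, and of its 4 genes here Taldo1 alone passed the test. Taldo1, transaldolase, was at 238, 237 and 237 FPKM in DMSO and at 260, 263 and 265 FPKM in haloperidol. The libraries of each treatment lay close together, and the rise was 0.15 on the log2 scale (SE 0.04, adjusted p = 0.0321). G6pdx, the entry enzyme glucose-6-phosphate dehydrogenase, was at 40.4 ± 1.62 and 44.9 ± 1.02 FPKM (0.15, adjusted p = 0.0652), and Tkt, transketolase, at 95.9 ± 3.08 and 105 ± 1.38 FPKM (0.13, adjusted p = 0.0783). Both had separate groups without passing, though G6pdx passed with quantile normalization (adjusted p = 0.0474) and sample quality weights (adjusted p = 0.0472) and Tkt with voom (adjusted p = 0.049). Pgd, the dehydrogenase that follows G6pdx, was at 15.1 ± 0.676 and 16.0 ± 1.14 FPKM (adjusted p = 0.46). The Taldo1 call was lost without any 1 of the 6 libraries (adjusted p = 0.0648 to 0.102), with rescaling to a common sum (0.0557), quantile normalization (0.0997) and the replicate number as a block (0.0536).

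Me1, the cytosolic malic enzyme, which also yields NADPH, was below the minimum level and was not tested. DMSO replicates 1, 2 and 3 gave 15, 32 and 27 reads, and haloperidol replicates 1, 2 and 3 gave 6, 8 and 10, or 0.856 ± 0.312 and 0.278 ± 0.0653 FPKM. The groups did not overlap, but in a fit with no minimum level the log2 fold change of -0.52 (SE 0.14) did not pass (adjusted p = 0.0648).

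Ferritin stores iron in a form that cannot feed radical chemistry, and neither chain passed the test or had an unadjusted p under 0.05. Fth1 was at 3769, 3602 and 3729 FPKM in DMSO and at 3466, 3485 and 3998 FPKM in haloperidol. Haloperidol replicate 3 was the highest of the 6 libraries and the other haloperidol libraries were the lowest, so the groups overlapped (log2 fold change -0.02, interval -0.17 to 0.13, adjusted p = 0.835). Ftl1 was at 616, 562 and 584 FPKM in DMSO and at 533, 521 and 596 FPKM in haloperidol, with haloperidol replicate 3 above the other haloperidol libraries but below DMSO replicate 1 (-0.10, interval -0.24 to 0.05, adjusted p = 0.302). With quantile normalization alone, the Ftl1 difference became -0.16 (adjusted p = 0.0232). The heavy chain made up 86.3% ± 0.297 of ferritin FPKM in DMSO and 86.9% ± 0.187 in haloperidol. Ferritin genes have many processed copies in the genome, so their levels are uncertain. The listed copies Ftl2 and Fth-ps2 were at most at 0.402 and 0.870 FPKM. These low values do not settle this, because reads shared with a copy may have been left out of all counts.

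**Figure D3:**
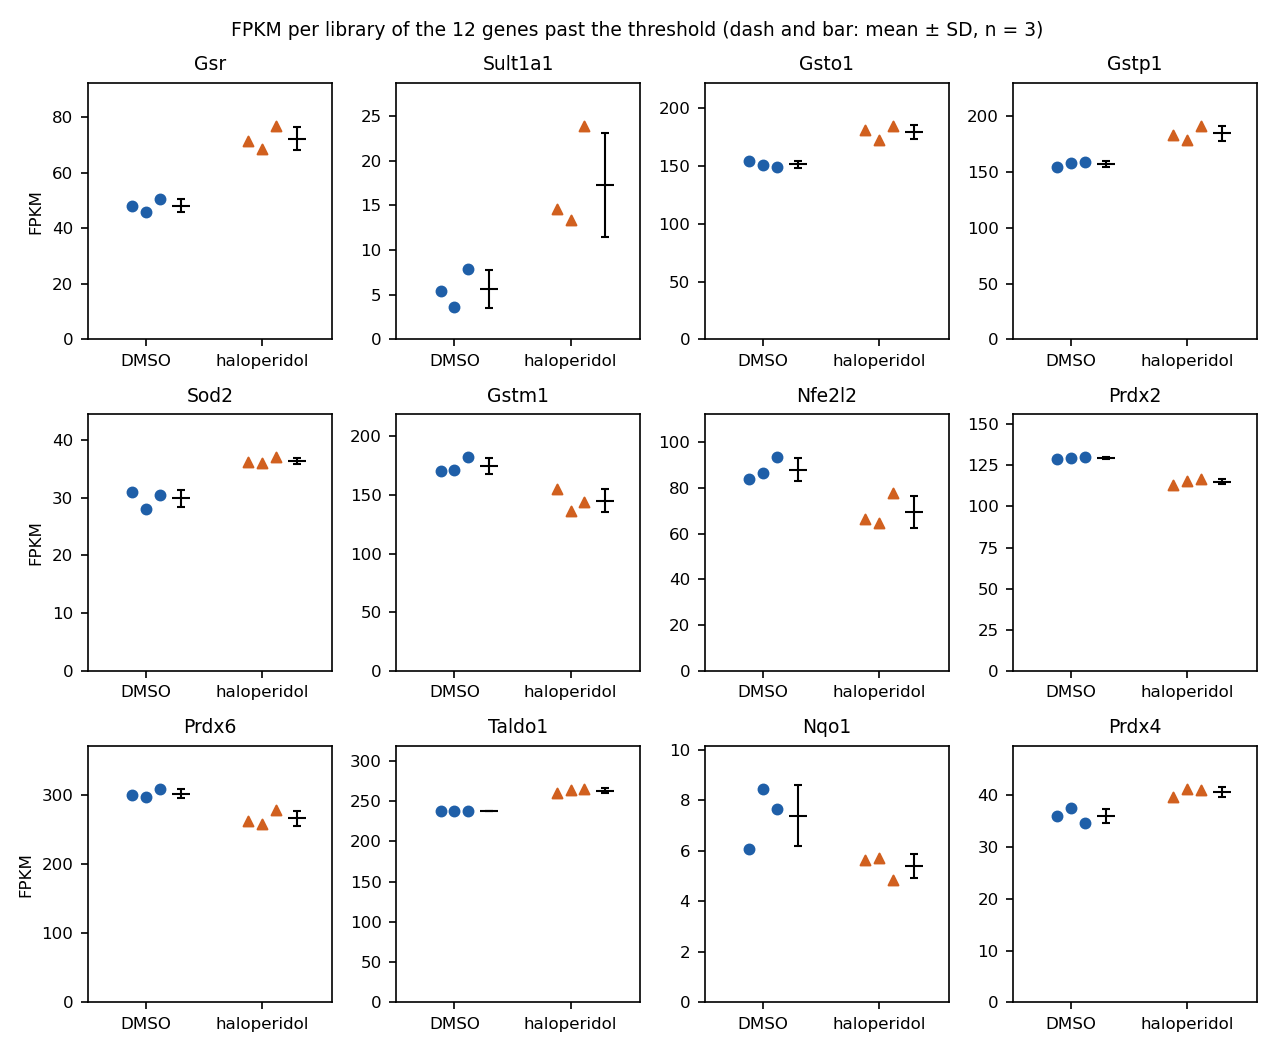
FPKM in each library for the 12 genes past the threshold, ordered by adjusted p, with circles for DMSO, triangles for haloperidol and a dash with bar for the mean ± SD (n = 3). Axes start at 0, and apart from Sult1a1 and Gsr the separations are small beside the level of the gene, as for Taldo1 at 237 and 263 FPKM.

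Another 132 genes of the same pathways were listed by role, and 103 were high enough to be tested. Of these, 17 were higher and 16 lower (32.0% called, beside 24.5% of all genes tested). The remaining 29 were under the minimum level, and Gsta1, Gsta2, Sult1b1, Sult1d1 and Ftmt had 0 reads in every library, which allows up to 0.336 to 0.353 RPM (3 reads, counting error only).

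Among partners and antagonists of NRF2, 2 of 14 were lower and 0 higher with limma (6 of 14 at an unadjusted p under 0.05). That is 14.3% called, beside 24.5% of all genes tested. Maff, a small MAF protein, fell from 21.8 ± 3.06 to 13.8 ± 1.08 FPKM (log2 fold change -0.63, adjusted p = 0.00336). Fbxw11, a substrate adaptor of a ubiquitin ligase, fell from 28.8 ± 0.849 to 23.9 ± 2.63 FPKM, a call lost under 9 of 17 alternatives, including those without DMSO replicate 1, 2 or 3 and haloperidol replicate 1 or 3 (adjusted p up to 0.117). Bach1, a repressor that competes with NRF2 for its elements, was at 6.41 ± 0.398 and 5.33 ± 0.0415 FPKM (adjusted p = 0.066), Mafg at 9.18 ± 0.507 and 8.60 ± 0.902 FPKM (adjusted p = 0.502), and Cul3, the ligase scaffold that KEAP1 serves, at 39.1 ± 1.26 and 36.3 ± 2.03 FPKM (adjusted p = 0.238).

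Among 13 other tested target genes of NRF2, 2 were lower and 1 higher (23.1% called, beside 24.5% of all genes tested). Cbr1, a carbonyl reductase, fell from 65.2 ± 4.33 to 39.4 ± 2.32 FPKM (log2 fold change -0.71, adjusted p = 2.93e-04). Osgin1, a stress-inducible growth inhibitor, fell from 11.2 ± 2.02 to 5.73 ± 0.378 FPKM (-0.85, adjusted p = 0.0016). Both kept their calls under all 17 alternatives. Fech, which inserts iron into haem, rose from 45.2 ± 2.14 to 53.8 ± 3.00 FPKM (adjusted p = 0.0199), a call lost without DMSO replicate 1 or 3 or without haloperidol replicate 1 or 2 (adjusted p up to 0.0661). Slc7a11, the cystine importer, had 12 to 18 reads in DMSO and 13 to 22 in haloperidol and was not tested.

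Other conjugating enzymes were divided, with 4 higher and 4 lower of 16 (8 of 16 called, beside 24.5% of all genes tested). Gstk1, a mitochondrial and peroxisomal transferase, fell from 21.8 ± 2.54 to 12.3 ± 1.59 FPKM (log2 fold change -0.78, adjusted p = 0.0017), and the mu-class gene Gstm7 from 10.4 ± 1.16 to 6.28 ± 0.788 FPKM (-0.64, adjusted p = 0.00381). Ahr, the aryl hydrocarbon receptor that induces detoxification genes, rose from 2.09 ± 0.0957 to 4.56 ± 0.864 FPKM (0.84, adjusted p = 0.00243).

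Other peroxide, thiol and methionine repair genes gave 4 higher and 1 lower of 25. That is 5 of 25 called, a smaller share than the 24.5% of all genes tested. Txnl1, a thioredoxin-like protein, fell from 98.3 ± 3.84 to 79.3 ± 3.20 FPKM (adjusted p = 0.00434). Txnrd3 rose from 16.7 ± 0.642 to 20.6 ± 0.6 FPKM, and the methionine sulfoxide reductase genes Msrb3 and Msrb1 from 7.98 ± 0.663 to 10.6 ± 0.316 and from 4.12 ± 0.601 to 6.02 ± 0.712 FPKM (adjusted p = 0.00971, 0.01 and 0.0239). The Msrb1 call was lost without DMSO replicate 3, haloperidol replicate 1 or haloperidol replicate 3 (adjusted p up to 0.0738) and with the minimum level dropped (adjusted p = 0.0758).

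Other genes listed under NADPH supply gave 3 higher and 2 lower of 13 (38.5% called, beside 24.5% of all genes tested). They are listed by pathway, and NADPH itself was not measured. Mthfd2 and Mthfd1l, enzymes of mitochondrial folate metabolism, rose from 10.2 ± 0.416 to 16.1 ± 1.23 FPKM (log2 fold change 0.61, adjusted p = 8.65e-04) and from 18.6 ± 0.977 to 25.9 ± 2.63 FPKM (0.45, adjusted p = 0.00535). Pgls, the pentose phosphate enzyme between G6pdx and Pgd, rose from 40.5 ± 1.27 to 49.4 ± 2.36 FPKM (0.28, adjusted p = 0.00801). Idh1, the cytosolic isocitrate dehydrogenase, fell from 26.2 ± 1.95 to 20.2 ± 1.14 FPKM (-0.36, adjusted p = 0.00862).

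Iron handling genes gave 4 lower and 0 higher of 14. That is 28.6% called, beside 24.5% of all genes tested (13.0% lower). Hmox2, the constitutive haem oxygenase, fell from 51.7 ± 1.14 to 38.1 ± 5.10 FPKM (log2 fold change -0.44, adjusted p = 0.00966), and Pcbp1, an iron chaperone that loads ferritin, from 307 ± 4.22 to 262 ± 14.8 FPKM (adjusted p = 0.0138, or 0.051 without haloperidol replicate 1). Tfrc, the transferrin receptor, fell from 16.2 ± 1.18 to 12.8 ± 1.30 FPKM (adjusted p = 0.0267), and Ncoa4, the receptor that sends ferritin to lysosomes, from 40.3 ± 0.420 to 34.5 ± 2.81 FPKM (adjusted p = 0.0383). Their calls were lost in 4 and 5 of the 6 fits that leave out a library: for Tfrc without DMSO replicate 2 or 3 or haloperidol replicate 1 or 3 (adjusted p up to 0.0949), and for Ncoa4 without any library but haloperidol replicate 1 (adjusted p up to 0.0984). Slc40a1, the iron exporter ferroportin, was at 1.92 ± 0.393 and 1.21 ± 0.104 FPKM (adjusted p = 0.0713), and passed without DMSO replicate 1 (adjusted p = 0.038).

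The relatives and regulators of Txnip had the largest share of calls, with 5 higher and 1 lower of 8. That is 75.0% called, beside 24.5% of all genes tested. The lists were chosen with earlier results of these data known, so this share is not a test of the list. Arrdc4 and Arrdc2, arrestin-domain relatives of Txnip, rose from 8.63 ± 1.32 to 17.6 ± 0.633 FPKM (log2 fold change 0.96, adjusted p = 4.56e-04) and from 4.83 ± 0.522 to 9.43 ± 0.620 FPKM (0.84, adjusted p = 5.62e-04). Of the glucose-responsive transcription factor pair that acts on Txnip and Arrdc4, Mlxip rose from 10.2 ± 1.44 to 16.2 ± 0.406 FPKM (0.62, adjusted p = 0.00227) and its partner Mlx fell from 18.6 ± 1.11 to 11.1 ± 1.30 FPKM (-0.70, adjusted p = 0.00111). These 4 calls held under all 17 alternatives. Txnip itself, at 0.23, moved less than Arrdc4, though the difference between the 2 was not tested. The exact E-box letters CACGTG were in the promoter window of Prdx4 alone among the 34 genes with a window, against 12.14% of tested genes with a window. Looser forms of the box were not searched, and the windows of Arrdc4 and Arrdc2 were not looked at singly. Whether Txnip or Arrdc4 holds sites for the Mlxip and Mlx pair was therefore not tested.

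**Figure D4:**
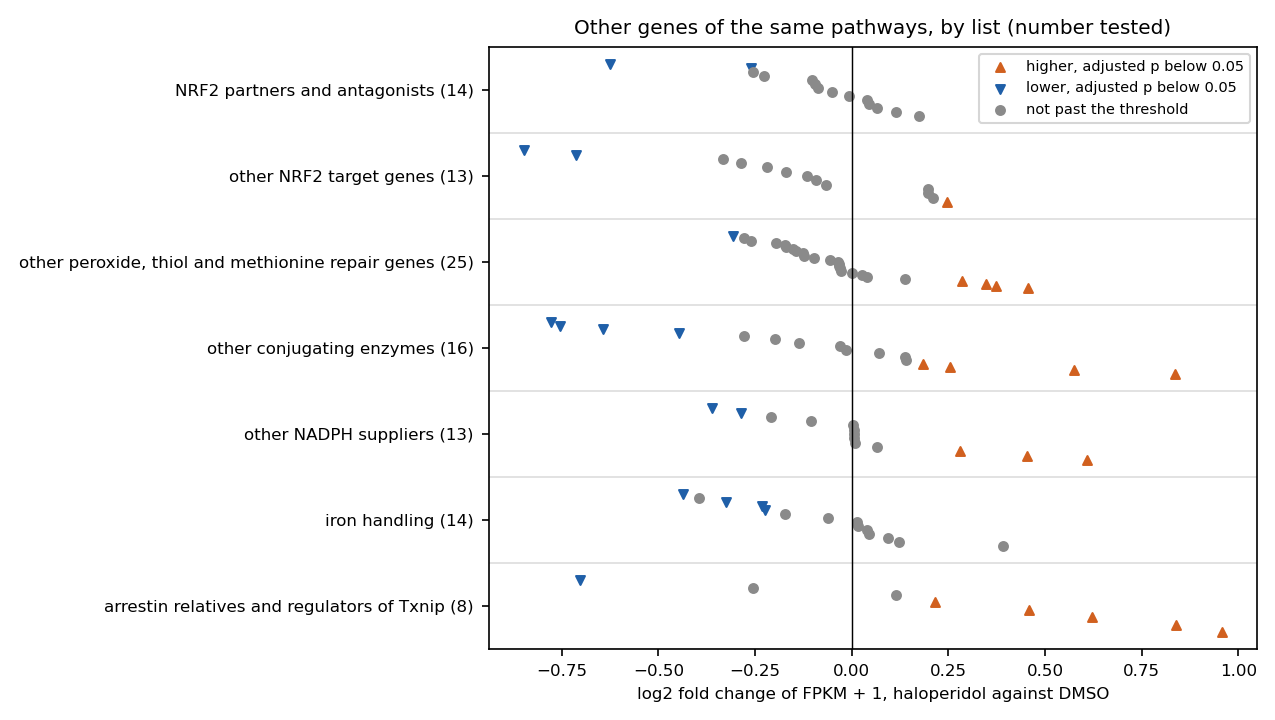
Log2 fold change of FPKM + 1 (x axis, haloperidol against DMSO) for the 103 tested genes on 7 lists of the same pathways, with the number tested beside each list and 1 point for each gene. Upward triangles are higher, downward triangles lower and circles not past the threshold, and the list with Arrdc4 at 0.96 and Arrdc2 at 0.84 has most of its points to the right of 0.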

How the data were processed

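The authors deposited 1 table of FPKM values with 38926 genes and 1 column per library. Per the labels' protocols, cDNA was made with a SMART-Seq v4 kit and libraries with Nextera XT. Per the submitters' processing notes, the build was mm10 and the tools included DESeq2 1.18.1, HTSeq 0.6.1, TopHat2 2.1.1 and bcl2fastq 2.19.1.403, and the annotation is not given in the sources used here. Within each gene the FPKM are whole multiples of 1 step for 100.0% of the 20633 genes above 0 (tolerance 0.001 reads), and the libraries' relative scale equals median-of-ratios size factors to within 6.7e-16. Recovered reads, which may miss a factor common to all libraries, served for depth and for 1 alternative chosen after seeing the data (voom). The main test was limma 3.58.1 in R 4.3.3 on log2(FPKM + 1), with a pseudocount of 1, a mean of at least 1 FPKM, a trended prior variance, two-sided, Benjamini-Hochberg adjustment over 11436 genes and no covariate. It was tested on simulated data. Adjusted p-values in the text are from this test unless another setting is named. Coordinates and overlaps are from GENCODE M21 (GRCm38, the assembly of mm10). Genes and lists were chosen with earlier results of these data known. Libraries' values are printed for genes past the threshold with a log2 fold change of at least 0.4 in size and for 6 fixed genes, and, after seeing the values, for the other genes past the threshold, Txnip and Me1. Of other pathway genes, up to 4 called ones per list with the smallest p are named, plus 6 fixed ones. The values of 1 gene that this rule names are not reported here.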

Additional observations from a re-analysis of the deposited data

How the results depend on the processing

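In all, 17 alternatives were run, and none turned the direction of a called gene among the 38. The planned edgeR and DESeq2 fits were not run, because the deposited values are FPKM, and limma voom on recovered reads, chosen after seeing the data, stood in for them (8 of these genes higher and 4 lower, against 7 and 5). With no filter on low values, 2 genes were lower, and 848 of all genes were higher in place of 1320. Leaving out 1 library at a time gave 5 to 6 of these genes higher and 1 to 4 lower, 11 to 14 other pathway genes higher and 12 to 16 lower, and 817 to 985 of all genes higher and 997 to 1228 lower. The fewest, 1 lower, came without DMSO replicate 3 or haloperidol replicate 1, and 2 without DMSO replicate 2 or haloperidol replicate 2. With the replicate number as a block, 6 genes were higher and 4 lower. With group means removed, same-numbered libraries correlated at 0.009, 0.055 and 0.020, and DMSO replicates 1 and 3 correlated best with another number. These values do not show a pairing by number, and they cannot exclude a shared day or batch. Scalings moved the median of all genes by at most 0.02. Signs changed for genes that did not pass: Gss -0.0082 and Sod1 -0.009 with rescaling to a common sum, Gclm 0.0011 and Txn2 0.0009 with upper quartile scaling, Gclm 0.0173, Gstm5 0.0114 and Sod1 -0.0038 with quantile normalization, and Gstm5 0.0164 and Txn2 0.0148 with sample quality weights. Leaving out 1 library gave log2 fold changes of -0.178 to 0.133 for Hmox1, -0.0236 to 0.0222 for Gclm, -0.0056 to 0.0324 for Gss, -0.0471 to 0.0513 for Gstm5, -0.0529 to 0.0168 for Mgst3, -0.0371 to 0.0284 for Txn2, -0.0876 to 0.029 for Prdx3, -0.0453 to 0.0856 for Sod1 and -0.0899 to 0.0131 for Fth1.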
